A study of Homo sapiens with 16 samples.

Results

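MCF-10A is a nontransformed human breast epithelial cell line, and the cells described here were exposed for 24 hours to vehicle (PBS), the control for 5 mM octanoic acid (OA). Chromatin marks were mapped by CUT&RUN, in which an antibody directs a nuclease to cut the DNA beside a modified histone. The 6 vehicle libraries of the 16 in the series, 3 with an H3K4me3 antibody and 3 with an H3K27me3 antibody, were set side by side. The other 10 libraries were 3 OA libraries for each mark, 2 untreated H3K4me3 libraries and 2 untreated IgG libraries, and they were used here only as libraries that took no part in defining the classes. All libraries came from the same single cell line, so the values describe that line and not breast epithelium in general.

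H3K4me3 is deposited at active and poised promoters by the SET1 and MLL methyltransferases, which are drawn to unmethylated CpG-rich DNA. H3K27me3 is deposited by Polycomb repressive complex 2, whose catalytic subunit is EZH1 or EZH2, and it covers silent developmental genes, often at CpG islands. CBX proteins of Polycomb repressive complex 1 bind it. Promoters with both marks are called bivalent in stem cells, but in a pool of cells peaks of both marks at a gene cannot tell the same allele apart from different alleles or different cells.

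For each mark, peaks sharing at least 1 bp were merged, and regions called in at least 2 of the 3 vehicle libraries were kept. Each of the 20015 protein-coding genes of GENCODE release 44 was then classed by the kept regions within 3 kb of any of its start sites. An H3K4me3 region was present at 12223 genes (61.1% of all) and an H3K27me3 region at 1732 (8.65%). H3K4me3 alone marked 11917 genes (59.5%), H3K27me3 alone marked 1426 (7.12%), both marks were found at 306 (1.53%) and 6366 (31.8%) had neither. These shares are the background for every gene group below.

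The 200 bases before the canonical start site show how promoters of the classes differ in sequence. They are given 5′ to 3′ on the strand of the gene, in build hg38, with every CpG in capitals. CPEB2 (chr4:15002281-15002480, + strand) carried H3K4me3 alone, CBX8 (chr17:79797078-79797277, − strand) carried both marks, and PRDM12 (chr9:130664394-130664593, + strand) and LORICRIN (chr1:153259487-153259686, + strand) carried H3K27me3 alone. None of the stretches overlaps an annotated exon, and the genes were picked as examples with their values known.
CPEB2: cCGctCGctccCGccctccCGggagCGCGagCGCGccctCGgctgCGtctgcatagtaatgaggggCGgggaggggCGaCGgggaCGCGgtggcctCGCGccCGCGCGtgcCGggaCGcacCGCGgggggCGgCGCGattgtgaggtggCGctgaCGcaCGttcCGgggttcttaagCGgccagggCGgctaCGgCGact
CBX8: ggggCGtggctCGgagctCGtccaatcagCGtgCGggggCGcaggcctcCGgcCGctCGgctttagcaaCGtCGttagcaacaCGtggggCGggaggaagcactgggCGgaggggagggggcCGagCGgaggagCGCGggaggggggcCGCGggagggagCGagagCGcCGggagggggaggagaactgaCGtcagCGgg
PRDM12: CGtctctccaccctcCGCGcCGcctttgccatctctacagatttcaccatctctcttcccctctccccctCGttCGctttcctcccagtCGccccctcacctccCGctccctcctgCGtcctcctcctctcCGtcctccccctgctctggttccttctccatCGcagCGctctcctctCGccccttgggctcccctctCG
LORICRIN: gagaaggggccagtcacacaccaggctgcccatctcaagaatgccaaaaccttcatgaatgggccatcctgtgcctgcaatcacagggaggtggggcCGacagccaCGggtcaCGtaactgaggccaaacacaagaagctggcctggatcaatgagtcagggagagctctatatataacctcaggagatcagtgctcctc
The number of CpGs was 35 for CPEB2, 25 for CBX8, 14 for PRDM12 and 3 for LORICRIN. Over all genes of a class, the median number in these 200 bases was 19 with H3K4me3 alone, 18 with both marks, 10 with H3K27me3 alone and 4 with neither. The promoters with H3K27me3 alone spread widely, with quartiles of 3 and 20.8 CpGs.

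The marks differed most in where their peaks lay. In vehicle replicates 1, 2 and 3, an H3K4me3 peak lay within 3 kb of a start site of 12692, 12290 and 11359 genes, and an H3K27me3 peak of 1816, 2676 and 2086 genes. The 3 H3K4me3 libraries all stood above the 3 H3K27me3 libraries, at 60.5% ± 3.42 against 11.0% ± 2.2 of the genes (SD, n = 3 each). The exact permutation test, two-sided, gave p = 0.1, which is the least that 3 against 3 libraries allow, and 0.15 after Benjamini-Hochberg adjustment over 6 tests. Of the peaks themselves, 71.7% ± 3.58 for H3K4me3 and 9.08% ± 1.77 for H3K27me3 lay within 3 kb of a start site (exact p = 0.1, adjusted 0.15). The windows within 3 kb of a start site cover 6.08% of the chromosomes. Peaks in the lists were also longer for H3K4me3, with means of 859 ± 202 bp and 496 ± 33.4 bp (exact p = 0.1, adjusted 0.15). Among peaks with q-values of at most 1e-05 the difference was 166 bp (exact permutation p = 0.2, not adjusted). The numbers of peaks, 17473 ± 2153 and 31766 ± 14643, overlapped between the marks (exact p = 0.2, adjusted 0.24). The lists reach a q-value of 0.01 for H3K4me3 and 0.1 for H3K27me3, and they hold narrow and broad peaks. The numbers and lengths of peaks therefore also carry different thresholds and ways of calling. The IgG libraries had a peak at 195 and 15 genes.

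**Figure D1:**
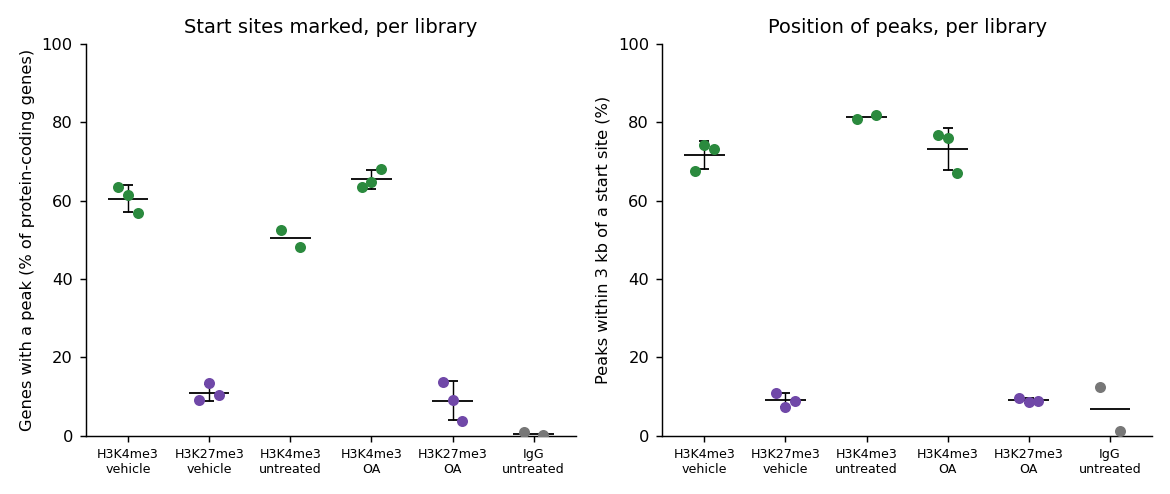
Genes with a peak within 3 kb of a start site (left, % of protein-coding genes) and peaks within 3 kb of a start site (right, % of the peaks in a library). Points are libraries, horizontal lines are means and bars are SD where n = 3; the 3 vehicle H3K4me3 libraries lie above the 3 vehicle H3K27me3 libraries in both panels.

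Repeat libraries of H3K4me3 shared more genes than those of H3K27me3. Of the genes with a peak in either of 2 vehicle libraries, 87.8% to 95.3% had one in both for H3K4me3 and 42.1% to 51.8% for H3K27me3. Of the 14899 kept H3K4me3 regions, 77.4% were called in all 3 libraries, against 30.5% of the 18917 kept H3K27me3 regions. The H3K27me3 peaks were also weaker calls: a q-value of 1e-05 or less was reached by 168, 243 and 150 peaks of replicates 1, 2 and 3, against 17610, 15133 and 12628 H3K4me3 peaks. When both marks were held to q-values up to 0.01, 329 genes had H3K27me3 alone and 70 had both, and at 1e-05 these classes held 3 genes and 1 gene.
The kept regions of the marks covered similar lengths, 18.3 Mb for H3K4me3 and 17 Mb for H3K27me3, and hardly met. They overlapped over 138 kb, at 186 H3K4me3 and 152 H3K27me3 regions. Within 3 kb of a start site lay 78.4% of the H3K4me3 regions but 10.6% of the H3K27me3 regions. A further 31.8% of the H3K27me3 regions lay in the body of a protein-coding gene, and 57.6% lay outside any. An IgG peak overlapped 4.93% of the H3K4me3 regions and 0.740% of the H3K27me3 regions.

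H3K4me3 coverage was highest just inside the gene, and H3K27me3 coverage was highest further in. Among genes with H3K4me3 alone, the share covered by an H3K4me3 region was highest 125 bp downstream of the canonical start, at 91.7% of the genes. Genes with both marks had their H3K4me3 maximum at the same distance but at 64.1%. Among genes with H3K27me3 alone, coverage by H3K27me3 was highest at 475 bp, at 27.3%, and was 21.7% at the start itself. Genes with both marks had 8.17% covered by H3K27me3 at the start and 11.1% at 125 bp, where their H3K4me3 was highest. H3K27me3 in these genes was highest at 1025 bp downstream, at 21.9%. It also lay upstream, with 16.3% at 3 kb before the start against 5.56% at 3 kb after it.

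**Figure D2:**
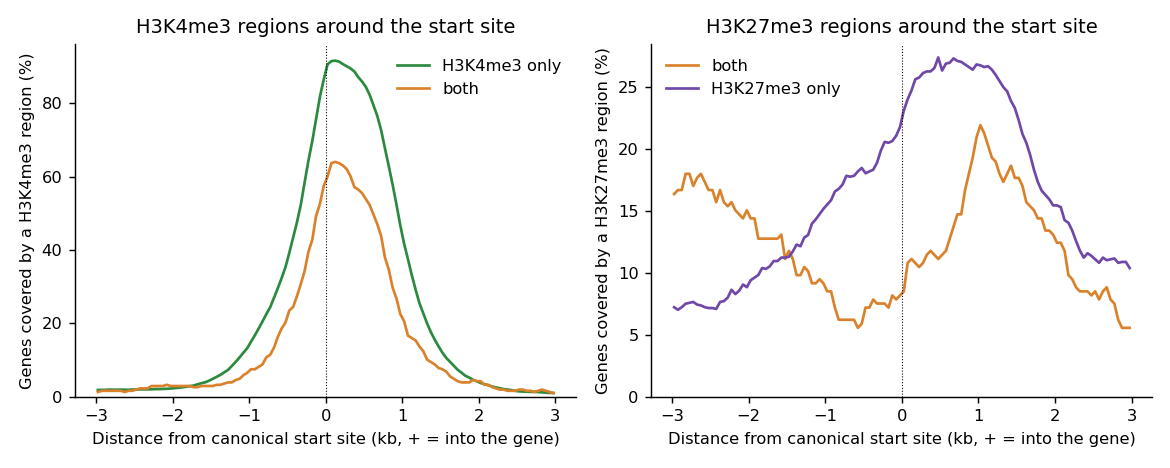
Share of genes whose DNA is covered by a kept H3K4me3 region (left) or H3K27me3 region (right), in 50 bp bins from 3 kb upstream to 3 kb downstream of the canonical start site; lines are gene classes. In genes with both marks, H3K27me3 coverage is 16.3% at 3 kb upstream, 8.17% at the start, 21.9% at 1025 bp and 5.56% at 3 kb downstream.

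The classes differed in promoter composition and gene length, neither of which was used to define them. The ratio of observed to expected CpG over 500 bases each side of the canonical start had a median of 0.791 with H3K4me3 alone, 0.767 with both marks, 0.595 with H3K27me3 alone and 0.317 with neither. Promoters with a ratio of at least 0.6, called CpG-rich here, made up 88.8%, 83.7%, 49.6% and 27.1% of these classes, and 66.3% of all genes. In the libraries taken one by one, the median ratio of the genes with a peak was 0.791 ± 0.00357 for H3K4me3 and 0.645 ± 0.0335 for H3K27me3 (SD, n = 3, two-sided exact permutation test, p = 0.1, adjusted 0.15). The share of genes with H3K4me3 alone climbed from 9.12% of those with a ratio under 0.2 to 83.7% of those from 0.8 to 1. The share with H3K27me3 alone went from 12% to 4.81%, but a gene with H3K4me3 cannot enter that class. Below a ratio of 0.2, 255 genes had H3K27me3 alone and 1674 had neither mark. From 0.8 to 1 these numbers were 307 and 619. Among genes without H3K4me3, the share with H3K27me3 was thus higher at the higher ratios.
Genes with both marks were the longest, with a median of 69.5 kb, against 33.9 kb with H3K4me3 alone, 27.6 kb with H3K27me3 alone and 15.6 kb with neither. A length over 100 kb was found for 38.9%, 19.6%, 26.3% and 13.1% of these classes. A single annotated start was found for 12.1% of the genes with both marks, 16.7% of those with H3K4me3 alone and 25.8% of all genes, and the part of the number of starts in these lengths was not tested. The median length of the genes with a peak did not separate the marks, at 34.8 ± 0.688 kb in the H3K4me3 libraries and 35.1 ± 1.42 kb in the H3K27me3 libraries (SD, n = 3, exact permutation p = 0.8, adjusted 0.8).
H3K27me3 alone was most frequent at both ends of the length range. It marked 8.74% of the genes in the shortest of 5 equal length groups, 4.70% of those in the middle group and 9.82% of those in the longest. The 1426 genes held CpG-rich and CpG-poor promoters in nearly equal numbers, 707 and 719, with median lengths of 54.6 kb and 13.5 kb.

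**Figure D3:**
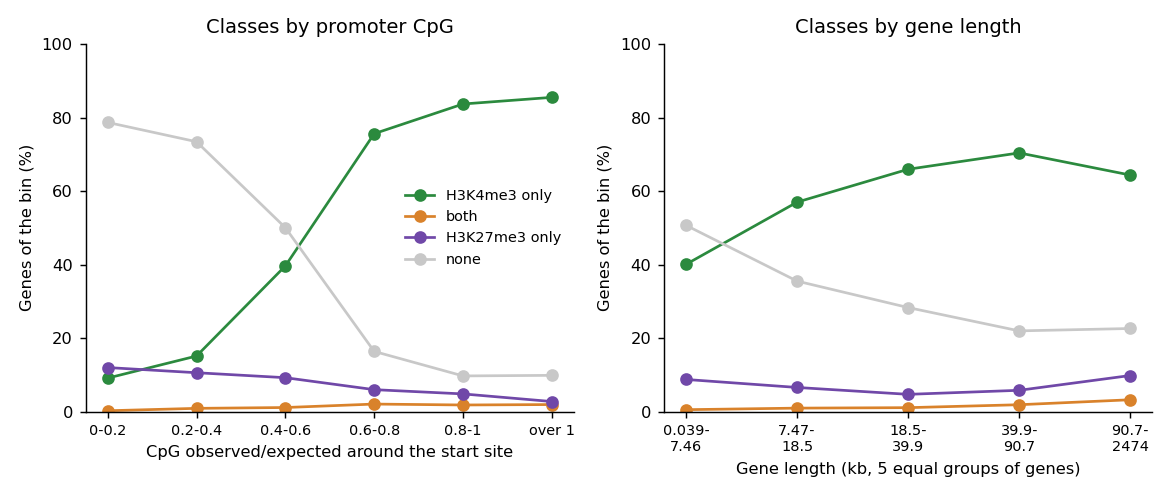
Share of genes in each mark class (%) by the observed/expected CpG ratio around the canonical start (left) and by 5 equal groups of gene length in kb (right). H3K4me3 alone reaches 83.7% at ratios from 0.8 to 1, and H3K27me3 alone is highest in the shortest and longest groups, at 8.74% and 9.82%.

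The CpG-rich and CpG-poor genes with H3K27me3 alone held different families. Of 165 homeobox and other developmental transcription factors, which specify cell types in the embryo, 50 had H3K27me3 alone (all genes, 7.12%) and 42 of these had a CpG-rich promoter. Of 415 olfactory receptors, the odour receptors of the nose, 80 had H3K27me3 alone and all 80 had a CpG-poor promoter, as did all 19 marked genes among the 94 keratin-associated proteins of hair. The families as a whole divide in this way. Promoters were CpG-rich at 140 of the 165 factors, 4 of the 415 receptors and 0 of the 94 keratin-associated proteins. The factors and the receptors were marked above the level of all genes in each library. A peak of H3K27me3 was found at 33.9%, 41.2% and 33.9% of the developmental factors and at 17.8%, 36.6% and 21.2% of the olfactory receptors in replicates 1, 2 and 3, against 9.07%, 13.4% and 10.4% of all genes. At q-values up to 0.01 a kept region was near a start of 10.3% of the factors, 4.58% of the receptors and 1.99% of all genes. Leaving out replicate 2 or 3 of both marks left 36 and 48 receptors with H3K27me3, which were 8.67% and 11.6% of them, against 4.78% and 5.50% of all genes. The keratin-associated proteins with H3K27me3 then numbered 7 and 9, and 5 (5.32%, all genes 4.37%) when a region of all 3 libraries was required. Fold enrichments over the caller's background had medians of 3.10, 3.12 and 3.25 at the CpG-rich and 3.13, 3.13 and 3.25 at the CpG-poor promoters with H3K27me3 alone. Covered lengths were shorter at the CpG-poor promoters, with medians of 528, 676 and 575 bp against 712, 796 and 722 bp. A region of all 3 libraries was found at 47.4% of the CpG-poor and 56.0% of the CpG-rich genes. Receptor and hair keratin genes have close copies that can share reads, so the call at a single one of them is uncertain.
Both groups were also marked in libraries that took no part in the classes. In OA replicates 1, 2 and 3, an H3K27me3 peak lay at 76.8%, 65.8% and 32.7% of the CpG-rich and 68.0%, 65.2% and 30.6% of the CpG-poor genes with H3K27me3 alone. Genes with neither mark had one at 15.6%, 9.35% and 2.87%. OA replicate 3, the lowest of the 3, had 9091 peaks in all, against 32363 and 25540. In the untreated libraries an H3K4me3 peak was found at 1.12% and 0.561% of the genes with H3K27me3 alone. Shares at genes with neither mark were alike, 1.13% and 0.597%. Both classes were defined by the lack of a shared H3K4me3 region in vehicle.

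The developmental factors show how the classes divided a family. Of the 165, 35 had H3K4me3 alone, 6 had both marks and 74 had neither. Those with H3K4me3 alone included GATA3 and FOXA1, which direct luminal mammary fate, TBX3, which is needed for mammary gland formation, and the Iroquois genes IRX1 to IRX5. Those with H3K27me3 alone included the neural and eye regulators PAX6, OTX2 and NEUROD2, the cardiac regulators TBX5, TBX20, GATA4 and HAND1, the intestinal regulators CDX1 and CDX2, and TBXT, the mesoderm factor. The 6 with both were NKX6-1, NEUROG2, ISL1, LMX1B, DLX4 and FOXA3. At the NEUROG2 start, H3K4me3 peaks covered 390, 668 and 0 bp within 3 kb in replicates 1, 2 and 3, and H3K27me3 peaks 959, 705 and 1084 bp. LMX1B had 1549, 1131 and 0 bp of H3K4me3 and 935, 1178 and 1360 bp of H3K27me3. At both genes H3K27me3 was called in all 3 libraries and H3K4me3 in 2.
The HOX genes, which set position along the body axis, divided by cluster. Of 11 HOXA genes 7 had H3K4me3 alone, and of 9 HOXC genes 7 did. None of the 10 HOXB or 9 HOXD genes had H3K4me3 alone: 3 HOXB genes (HOXB4, HOXB8 and HOXB9) and HOXD13 had H3K27me3 alone, HOXB2 and HOXB3 had both, and the others had neither. Windows of neighbouring HOX genes overlap, so the genes of a cluster are not separate observations. HOXA13 carried 1322, 731 and 1435 bp of H3K27me3 in replicates 1, 2 and 3, and HOXD13 carried 777, 1308 and 877 bp, with no H3K4me3 at either. HOXB2 carried 1327, 1351 and 457 bp of H3K4me3 beside 437, 1077 and 898 bp of H3K27me3.
Signal and excitability genes were marked by H3K27me3 above the share of all genes. Of 59 pore subunits of voltage-gated channels, which carry the currents of nerve and muscle, 18 had H3K27me3 alone, among them CACNA1A and SCN1A, 7 had H3K4me3 alone and 2 had both. Per library, 35.6%, 47.5% and 39.0% had an H3K27me3 peak. Of 19 WNT ligands, 6 had H3K27me3 alone (WNT1, WNT2, WNT3A, WNT5B, WNT6 and WNT16) and 7 had H3K4me3 alone, WNT5A and WNT10B among them. These H3K4me3 calls rested on replicates 1 and 2: replicate 3 had a peak at 1 of the 19 WNT ligands, and leaving out replicate 1 or 2 gave 1 ligand with H3K4me3. The channel subunits with H3K4me3, 9 in all, numbered 5 without replicate 1 and 3 without replicate 2. The 53 clustered protocadherins, which give neurons surface identities, went without H3K27me3: 6 had H3K4me3 alone and 47 had neither.
Genes that every dividing cell uses carried H3K4me3. H3K4me3 alone marked all 78 mitochondrial ribosomal proteins, all 30 replication and mitosis genes and all 23 enzymes and partners of H3K4 and H3K27 methylation, EZH2 included. It also marked 77 of 81 cytoplasmic ribosomal proteins, 77 of 80 nuclear-encoded respiratory chain subunits, 36 of 39 proteasome subunits and 62 of 69 replication-dependent and linker histones. Of the ribosomal proteins, RPL38 and RPS4X had both marks. Of 508 ZNF genes of the C2H2 zinc finger class, 399 had H3K4me3 alone, 5 had H3K27me3 alone, 2 had both and 102 had neither.

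**Figure D4:**
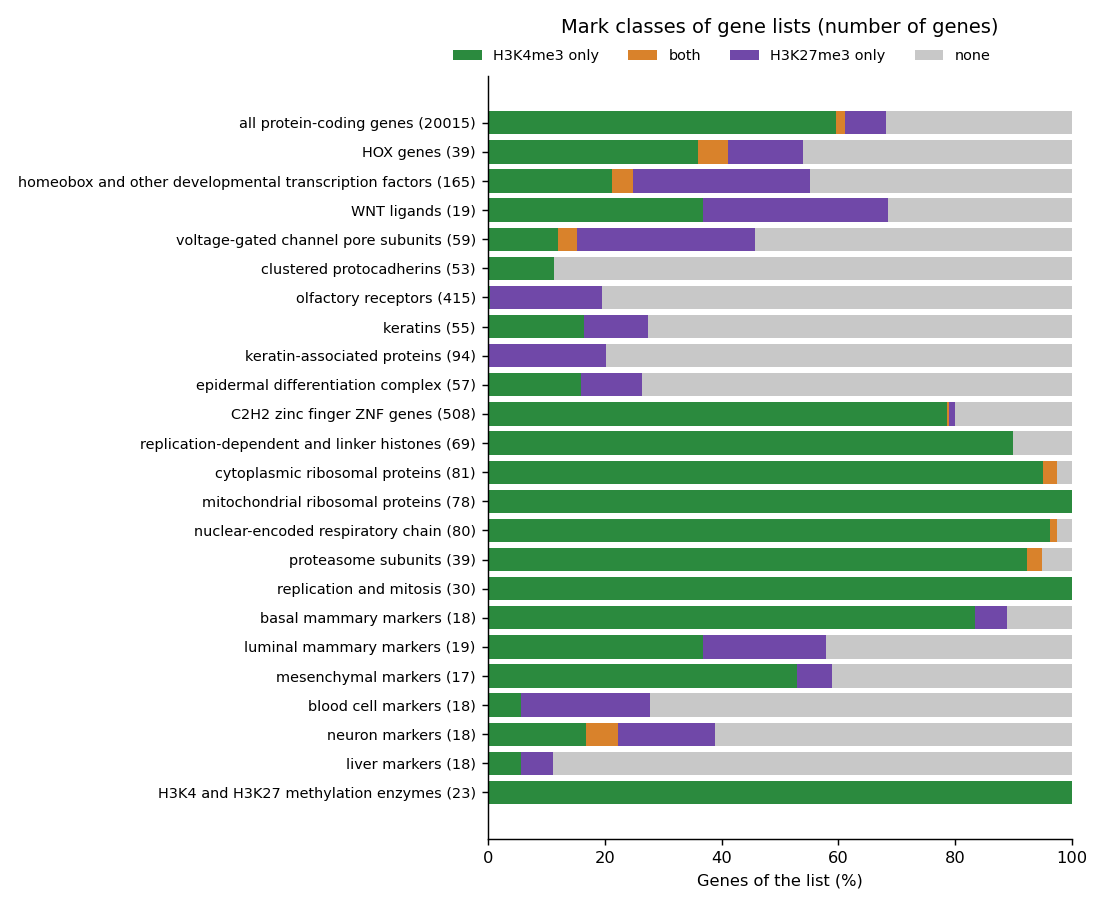
Share of each gene list (% of its genes, number in brackets) in the 4 mark classes, with all protein-coding genes at the top (59.5% H3K4me3 alone, 1.53% both, 7.12% H3K27me3 alone). Housekeeping lists are nearly all H3K4me3, and H3K27me3 alone is widest in WNT ligands, channel subunits and developmental factors.

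Marker genes of basal and luminal mammary cells were set beside the label of a breast epithelial line, and the lists were not tested against each other. Of 18 basal markers, 15 had H3K4me3 alone, among them the basal keratins KRT5, KRT14 and KRT17, the laminin chains LAMA3 and LAMB3 and the integrins ITGA6, ITGB1 and ITGB4. NGFR had H3K27me3 alone, and OXTR and MYLK had neither. At KRT5, H3K4me3 covered 1740, 1846 and 821 bp in replicates 1, 2 and 3, and H3K27me3 0 bp in each. At KRT14 it covered 1121, 747 and 0 bp, so replicate 3 had no call. TP63, the master regulator of basal cells, had no peak at its canonical start, and its H3K4me3 region lay 159 to 160 kb inside the gene at another of its 6 annotated starts, in 2 libraries. NGFR, a receptor of neurotrophins, had 1396, 1970 and 2718 bp of H3K27me3, and 191, 0 and 0 bp of H3K4me3.
Luminal markers were mixed. Of 19, 7 had H3K4me3 alone (MUC1, EPCAM, GATA3, KRT8, KRT18, FOXA1 and CDH1), 4 had H3K27me3 alone, LTF, KIT and PGR among them, and 8, including ESR1, ELF5 and PRLR, had neither. GATA3 had 2512, 2799 and 770 bp of H3K4me3. KIT, a receptor of luminal progenitors, had 946, 699 and 956 bp of H3K27me3, and PGR, the progesterone receptor, had 458, 484 and 212 bp, with no H3K4me3 at either. ESR1, the estrogen receptor, had 385 bp of H3K27me3 in replicate 2 alone and so stayed below the limit of 2 libraries.
Blood cell, liver and neuron markers were mostly without H3K4me3. It marked 1 of 18 blood cell markers (CD14), 1 of 18 liver markers (APOA2) and 4 of 18 neuron markers (MAP2, SYT1, TUBB3 and, with H3K27me3, SLC17A7). Promoters were CpG-rich at 2 of the blood cell, 0 of the liver and 12 of the neuron markers. The part of promoter CpG in these low numbers was not tested. Of 17 mesenchymal markers, 9 had H3K4me3 alone (52.9%, all genes 59.5%), including VIM, FN1, CDH2, ZEB1 and SNAI2, and THY1 had H3K27me3 alone. In the epidermal differentiation complex of 57 genes, 42 had neither mark and 1 had a CpG-rich promoter. The 9 with H3K4me3 alone (15.8%, all genes 59.5%) were all S100 genes. H3K27me3 alone was found at 6 (10.5%, all genes 7.12%): LORICRIN, a cornified envelope protein, LCE1A, LCE2D, TCHHL1, S100A7 and S100A7A. Of 55 keratins, the 9 with H3K4me3 alone were KRT5, KRT6A, KRT6C, KRT7, KRT8, KRT10, KRT14, KRT17 and KRT18. Leaving out replicate 1 or 2 gave 5 genes of the epidermal complex and 2 neuron markers with H3K4me3. Genes of the complex with H3K27me3 numbered 3 to 5 with a replicate left out and 2 with 1 kb windows.
MCF-10A is known to lack CDKN2A and CDKN2B, the cell cycle inhibitors that lie beside MTAP on the short arm of chromosome 9. All 3 genes had neither mark, with observed/expected CpG ratios of 0.780 for CDKN2A, 0.830 for CDKN2B and 0.781 for MTAP. From 3 kb before MTAP to 3 kb after CDKN2B, over 213 kb (chr9:21799636-22012305), 15 of the 16 libraries had no peak, and H3K27me3 vehicle replicate 2 had 1. Copy number was not measured here, so a gene without peaks and a deleted gene cannot be told apart in the class with neither mark. Nearby, 7 of the 13 IFNA interferon genes had H3K27me3 alone and the other 6 had neither; their copies are alike in sequence and their calls depend on where shared reads were placed.

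The widest H3K4me3 among genes with that mark alone reached at least 2548 bp around the canonical start in every vehicle library. CPEB2, a regulator of mRNA translation, had 3754, 3802 and 3131 bp in replicates 1, 2 and 3, and ANP32A, a nuclear phosphoprotein, had 3218, 3423 and 3011 bp. SLC12A2, a sodium, potassium and chloride cotransporter, had 2590, 3098 and 2700 bp. QKI, an RNA-binding splicing regulator, had 2595, 3296 and 2576 bp, and ING2, a reader of H3K4me3 itself, had 2683, 2897 and 2548 bp. All 5, ranked by their width in vehicle, had narrower H3K4me3 in the untreated libraries, 1642 and 1560 bp at CPEB2. The class as a whole was narrower there too, with medians of 773 and 669 bp against 1369, 1371 and 911 bp in vehicle. None of the 5 had an H3K27me3 peak in any vehicle library, and their class already excludes a shared H3K27me3 region. The other 3 of the widest 8, FAM72A, FAM72C and SRGAP2, belong to recently duplicated families. FAM72A and SRGAP2 share one promoter and hence one set of values, 2985, 3532 and 2754 bp, and FAM72C had 3184, 3527 and 2875 bp. Because reads of near-identical copies may have been divided between them, and IgG replicate 1 had 357 bp of peak at FAM72A and 296 bp at FAM72C, these values are uncertain.
The 8 genes with the widest H3K27me3 among those with that mark alone had at least 2073 bp of it in every vehicle library. SLC26A9, an anion transporter, had 2776, 3027 and 3028 bp at 2.01, 2.19 and 2.26 fold over background, and DUSP15, a dual-specificity phosphatase, had 2678, 2686 and 2508 bp. SYT2, a calcium sensor of synaptic vesicles, had 2401, 2798 and 3378 bp. CYP26A1, which breaks down retinoic acid, had 2329, 3400 and 2601 bp in vehicle. Its OA libraries had 2035, 2134 and 926 bp. DUOX2, an oxidase that makes hydrogen peroxide, and its maturation factor DUOXA2 share a promoter that had 2356, 2873 and 2524 bp. PRDM12, a regulator of pain-sensing neurons, had 2352, 2090 and 2073 bp, and IGDCC3, a membrane protein of the immunoglobulin superfamily, had 2462, 2354 and 2206 bp. None of the 8 had an H3K4me3 peak in a vehicle or untreated library within 3 kb of its canonical start. Their class already excludes a shared H3K4me3 region in vehicle, and 1.12% and 0.561% of its genes had a peak in the untreated libraries.

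In genes with both marks, the regions mostly stood apart. They overlapped at 37 of the 306 genes (12.1%), lay side by side at a start at 157 (51.3%; median gap 1348 bp) and were at different starts of the gene at 112 (36.6%). Peaks of at least 2 libraries of each mark lay within 3 kb of the same canonical start at 165 genes. The size of the class depended on single libraries: leaving out replicate 1, 2 or 3 of both marks, with regions then required in both remaining libraries, gave 173, 116 and 178 genes, and windows of 1 kb gave 172.
Among the genes with both marks were a few that encode chromatin proteins, although none of the 23 enzymes and partners of H3K4 and H3K27 methylation was in the class. The adjacent genes CBX2 and CBX8 on chromosome 17 encode readers of H3K27me3 in Polycomb repressive complex 1. CBX8 had 1230, 1140 and 841 bp of H3K4me3 and 654, 1368 and 645 bp of H3K27me3 in replicates 1, 2 and 3. CBX2 had 1192, 1232 and 280 bp of H3K4me3 and 0, 766 and 0 bp of H3K27me3 at its canonical start. H3K4me3 was thus called in every library at both genes, and H3K27me3 in every library at CBX8. CBX8 was picked by its smallest covered length of each mark over the libraries, which favours such genes.
BMI1, another subunit of that complex, had 1479, 1364 and 766 bp of H3K4me3 and 1080, 598 and 1059 bp of H3K27me3, and the kept regions overlapped. TRIM28, a corepressor bound by zinc finger proteins, had 2550, 2385 and 1011 bp of H3K4me3 and 1428, 1417 and 1367 bp of H3K27me3, 1274 bp apart. BRD3, a reader of acetylated histones, had 2437, 2639 and 818 bp beside 1328, 1122 and 939 bp. These genes were ranked by the smallest covered length of each mark over the 3 libraries, so both marks were called in all 3. H3K4me3 was narrowest in replicate 3. That library also had the shortest H3K4me3 peaks in general, with a mean of 643 bp against 891 and 1042 bp in replicates 1 and 2.
The remaining genes with most of both marks had other roles. GALR2, a galanin receptor, had 1265, 1156 and 828 bp of H3K4me3 and 2891, 2285 and 1385 bp of H3K27me3. RPL38, a ribosomal protein, had 1030, 960 and 829 bp beside 740, 1179 and 980 bp. The divergent pair PLAG1, a zinc finger transcription factor, and CHCHD7, a mitochondrial protein, share a promoter with 947, 1570 and 893 bp of H3K4me3 and 730, 734 and 753 bp of H3K27me3, 1276 bp apart. H3K27me3 at PLAG1 covered 675, 903 and 0 bp in the OA libraries.
H3K4me3 was narrower at genes with both marks than at genes with H3K4me3 alone, in every library. Among genes with a peak at the canonical start, the median covered length was 988, 975 and 688 bp against 1369, 1371 and 911 bp in vehicle replicates 1, 2 and 3. The untreated libraries, which did not define the classes, gave 552 and 561 bp against 773 and 669 bp. They also had an H3K4me3 peak at fewer of these genes, 57.8% and 50% against 85.9% and 79.4%. Part of the class had a weaker footing in H3K4me3, with a region of all 3 vehicle libraries at 73.9% of its genes against 92.2%. With both classes limited to such genes, a choice made after the values were seen, the untreated libraries gave 71.2% and 61.5% against 90.4% and 84.2%. For H3K27me3, the OA libraries had a peak at 76.8%, 59.2% and 25.5% of the genes with both marks and at 72.4%, 65.5% and 31.6% of those with H3K27me3 alone, in an order that changed between libraries.

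The longest runs of neighbouring genes of 1 class were found for H3K4me3 alone and neither mark, the largest classes (59.5% and 31.8%). Larger classes give longer runs by size alone, and what class size would give was not computed. H3K27me3 alone, at 7.12% of all genes, had 39 runs of 3 or more, with 140 genes in them. Genes with both marks had 1 such run. The longest run of neighbouring genes with H3K4me3 alone had 48 members over chr2:54330034-68157549, from C2orf73 to DNAAF10, and held the NF-kappaB subunit REL, the zinc finger factor BCL11A and the developmental factors OTX1 and MEIS1. Runs of 22 were found on chromosome 6 in the histone cluster, from H2BC12 to H2BC17, and in the major histocompatibility region, from TRIM26 to VARS2, and on chromosome 12. The longest runs with H3K27me3 alone had 7 genes: olfactory receptors from OR2W1 to OR5V1 on chromosome 6, beta-defensins and SPAG11B on chromosome 8 and the TRIM49 and TRIM64 copies on chromosome 11. The defensin and TRIM49 genes are near-identical copies, so their separate calls are uncertain. The longest run with neither mark had 71 genes, mostly olfactory receptors, on chromosome 11.
By chromosome, H3K4me3 was least frequent on X. It had a peak at 48.3%, 46.8% and 41.4% of the X genes in vehicle replicates 1, 2 and 3, against 64.2%, 62.2% and 57.6% of autosomal genes, and X was the lowest chromosome after Y in each library. The untreated libraries had peaks at 25.8% and 17.2% of X genes against 53.8% and 49.8% of autosomal genes. X has fewer CpG-rich promoters (53.7% of its genes, all genes 66.3%), and among these 72.7% had an H3K4me3 region, less than on any autosome, where the lowest was chromosome 18 at 77.5%. For H3K27me3, X was the lowest chromosome of replicate 1 at 6.52% and the highest of replicate 2 at 19.4%, so the libraries gave it no fixed rank.
Chromosomes 11 and 21 also had low shares with H3K4me3. Without olfactory receptors and keratin-associated proteins, the share with an H3K4me3 region went from 52.1% to 60.8% on chromosome 11 and from 50% to 64.3% on chromosome 21. The highest share was 68.4% on chromosome 15. Per megabase, H3K4me3 regions covered most of chromosome 19, 19.0 kb, which also has the most genes per megabase. An H3K27me3 region was found at 12% of the genes of chromosome 8 and 5.37% of those of chromosome 22, the highest and lowest after Y, and replicates 1, 2 and 3 gave chromosome 8 12.1%, 17.8% and 14.0%. None of the 45 Y genes had a region of either mark.

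**Figure D5:**
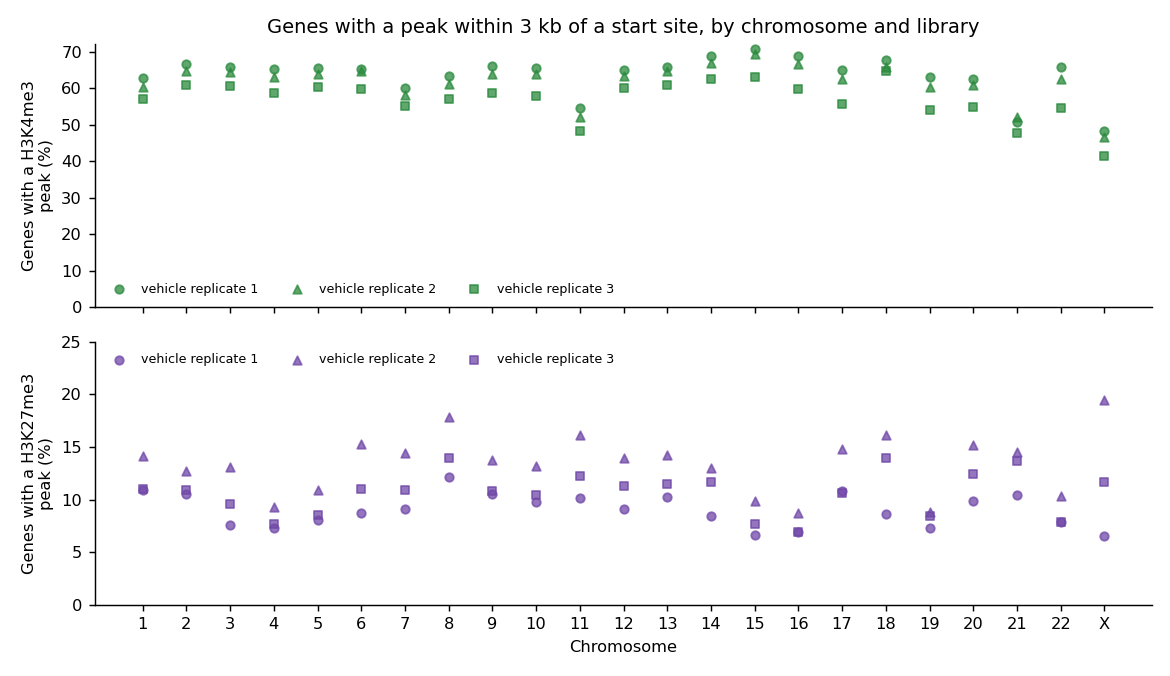
Genes with an H3K4me3 peak (top) or an H3K27me3 peak (bottom) within 3 kb of a start site, in % of the genes of each chromosome; symbols are the 3 vehicle replicates. X is lowest for H3K4me3 in each replicate, and for H3K27me3 runs from 6.52% in replicate 1 to 19.4% in replicate 2.

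OA libraries add 1 observation on H3K4me3 at genes that lacked it in vehicle. In vehicle, an H3K4me3 peak was called in single libraries at 12.7%, 1.70% and 2.26% of the 707 CpG-rich genes with H3K27me3 alone. The OA libraries had one at 22.6%, 24.0% and 46.3% of them. CpG-rich genes with neither mark went alongside, with 12.5%, 2.67% and 1.74% in vehicle. Their OA shares were 17.5%, 20.5% and 36.4%. The vehicle libraries defined both classes by the lack of a shared H3K4me3 region and are low by that rule, so the step from vehicle to OA is a description without a test.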

How the data were processed

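Peak lists from 16 CUT&RUN libraries of MCF-10A cells were used, and groups and replicates follow the labels. Peaks had been called by the authors library by library in build hg38, with MACS2 2.2.7.1 named for the narrow H3K4me3 lists and SICER2 for the broad H3K27me3 lists, which nevertheless have the MACS2 broadPeak layout. The deposited fold enrichment is a ratio to the caller's background, and the deposited −log10 p and −log10 q were likewise left unscaled between libraries. Aligner, duplicate handling and control library are not given in the sources used here, and numbers of reads were not used, so the depth is unknown.

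Peaks on autosomes, X and Y were kept. Merging (at least 1 bp shared), the limit of 2 libraries and the 3 kb window define the classes. Start sites are those of the protein-coding transcripts of protein-coding genes in GENCODE release 44. Starts of their other transcripts were not used. The canonical start was used for lengths, CpG and profiles. A covered length is the number of bp under peaks within 3 kb of the canonical start. Members and gene lists were chosen with earlier results of these data known. The 8 genes named per class are those with the largest lowest covered length over the 3 libraries (for both marks, the lower of the within-class percentiles), beside members of the lists and the longest runs. Marks were compared over libraries with exact permutation tests (two-sided) on means. The paper's methods describe biological triplicates for vehicle and OA. The steps were tested on simulated data. Alternatives were windows of 1 kb, canonical starts only, 1 or 3 libraries, q-values of at most 0.01 or 1e-05, equal peak numbers, 200 bp in the window, removal of IgG regions, each replicate left out, a replicate block and H3K27me3 peaks joined within 5 kb. Python 3.11.15, numpy 2.4.6, pandas 2.3.3 and matplotlib 3.10.9 were used.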

Additional observations from a re-analysis of the deposited data

How the results depend on the processing

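The number of genes with H3K4me3 alone, of genes with neither mark and of kept H3K4me3 regions stayed within 1.5 times under every alternative tried, except 23392 H3K4me3 regions when 1 library sufficed. H3K27me3 calls depended on the limits. Genes with H3K27me3 alone numbered 2515 with 1 library, 781 with all 3, 823 with equal peak numbers, 329 at a q-value of at most 0.01 and 3 at 1e-05. Genes with both marks numbered 993, 93, 154, 70 and 1 under these settings, 172 with 1 kb windows and 172 with canonical starts only. Kept H3K27me3 regions numbered 70030, 5766, 8429, 3204 and 98. Leaving out a replicate gave 841 to 1199 genes with H3K27me3 alone, 116 to 178 with both marks and 6864 to 13958 H3K27me3 regions; fewer libraries and the demand for both remaining ones lower such numbers by construction.

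H3K4me3 had more peaks than H3K27me3 at q-values of at most 0.01 and 1e-05, by 9645 and 14937, the reverse of the difference over all peaks. The difference in median gene length, H3K4me3 minus H3K27me3, was -0.26 kb over all peaks and -4.32 and -37.1 kb at these q-values, and it ran from -0.923 to 0.266 kb with a replicate left out. The mean share of genes with both marks that had an H3K4me3 peak in the untreated libraries, 53.9%, became 48.0% with 1 kb windows, 41.7% with 1 library and 66.7% with all 3, and ran from 53.4% to 65.9% with a replicate left out; that of genes with H3K4me3 alone stayed above it throughout. At 1e-05 the OA libraries had an H3K27me3 peak at 88.9% of the genes with that mark alone and 100% of those with both, over 3 genes and 1 gene. The cause of these changes was not tested. With a replicate block (exact sign-flip test over 3 pairs, smallest p 0.25) the p-values were 0.25 for peak length, peaks near starts, genes with a peak and CpG ratio, 0.5 for the number of peaks and 0.75 for gene length. The numbers did not pair the libraries: correlations of deviations between same-numbered libraries of the marks were 0.0138, -0.0376 and 0.00238. Of the values for single gene lists and named genes, 595 stayed within 1.5 times (counts) or 1 SD (covered lengths) and 181 did not. The limits on H3K27me3 are the weak q-values of its peaks and the unknown number of reads.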
